A study of Homo sapiens with 2 samples.

Results

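Transcripts of 57 receptor tyrosine kinase genes, listed by gene symbol, were examined among the 58735 genes of an RNA sequencing study of U87MG spheres. The list was drawn up with earlier results of these data known. U87MG is an established human glioblastoma line, here kept for a week in stem cell medium. By the labels, the shTRIP13 cells received lentivirus with an shRNA against TRIP13, an ATPase of the spindle checkpoint, and the shcon cells the control vector pGIPZ-CTRL. Both were selected with puromycin, and the labels do not say how many clones were pooled. Each group held 1 library, so every difference below describes these libraries and has no replicate check.

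TRIP13 itself went against the label, with 23.1 FPKM (1593 reads) in the library labelled shTRIP13 and 11.9 FPKM (819 reads) in shcon, an FPKM ratio of 1.95 (95% counting interval 1.79 to 2.12). Exchanged labels and an shRNA that did not lower TRIP13 cannot be told apart here. Directions below are between libraries as labelled, and all of them would turn if the labels were exchanged. The libraries held 19903836 and 18871063 reads, and mitochondrially encoded genes took 4.40% and 4.0% of them. Of 12 astrocyte and glioma sphere markers, VIM and CD44 were abundant (427 and 112 FPKM against 442 and 115) and GJA1 (62.3 against 103), GLUL (11.7 against 25.0), SLC1A3 (7.91 against 10.6), ALDOC (6.38 against 22.5) and NES (2.21 against 5.23) were present. SOX2 (1 against 2 reads) and PROM1 (1 against 5), often used as markers of glioma stem cells, were close to absent, GFAP had 28 against 92 reads, OLIG2 had 22 against 177 and AQP4 had none. By the size rule described below, 3 of the 8 with a mean of 1 FPKM or more were lower (GLUL, ALDOC and OLIG2) and 0 higher. OLIG2 (0.339 against 2.72 FPKM) reached that mean only through shcon. The median log2 ratio of the 8 was -0.84. Of all protein-coding genes at that level, 4.19% were lower and 2.17% higher, with a median of 0.12.

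Receptor tyrosine kinases span the cell membrane once and carry a kinase domain inside the cell. Binding of a ligand brings receptors together, the kinases phosphorylate each other on tyrosine, and adaptor proteins that dock there start RAS-ERK and PI3K signalling. In glioblastoma, EGFR, PDGFRA and MET are the members best known for amplification or activation. Some members, among them ERBB3, PTK7, RYK and EPHB6, have kinase domains with little or no catalytic activity and act through partners, and the LMTK kinases are grouped here by sequence although LMTK2 phosphorylates serine and threonine.

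A smaller share of the family than of protein-coding genes reached 1 FPKM, while the shares with 20 or more reads were close. A mean of 1 FPKM or more was reached by 22 of the 57 members (38.6%), compared with 53.5% of 19951 protein-coding genes. A further 13 stayed below that mean but had 20 or more reads in both libraries together, 15 had between 1 and 19 reads, and 7 had none. In all, 35 members (61.4%) had 20 or more reads, compared with 64.6% of protein-coding genes. The summed level of all members was 255 FPKM in the library labelled shTRIP13 and 247 FPKM in shcon. AXL, MET, DDR2, FGFR1 and EGFR were the 5 most abundant in both libraries and made up 72.9% of that sum in the library labelled shTRIP13 and 62.8% in shcon.

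**Figure D1:**
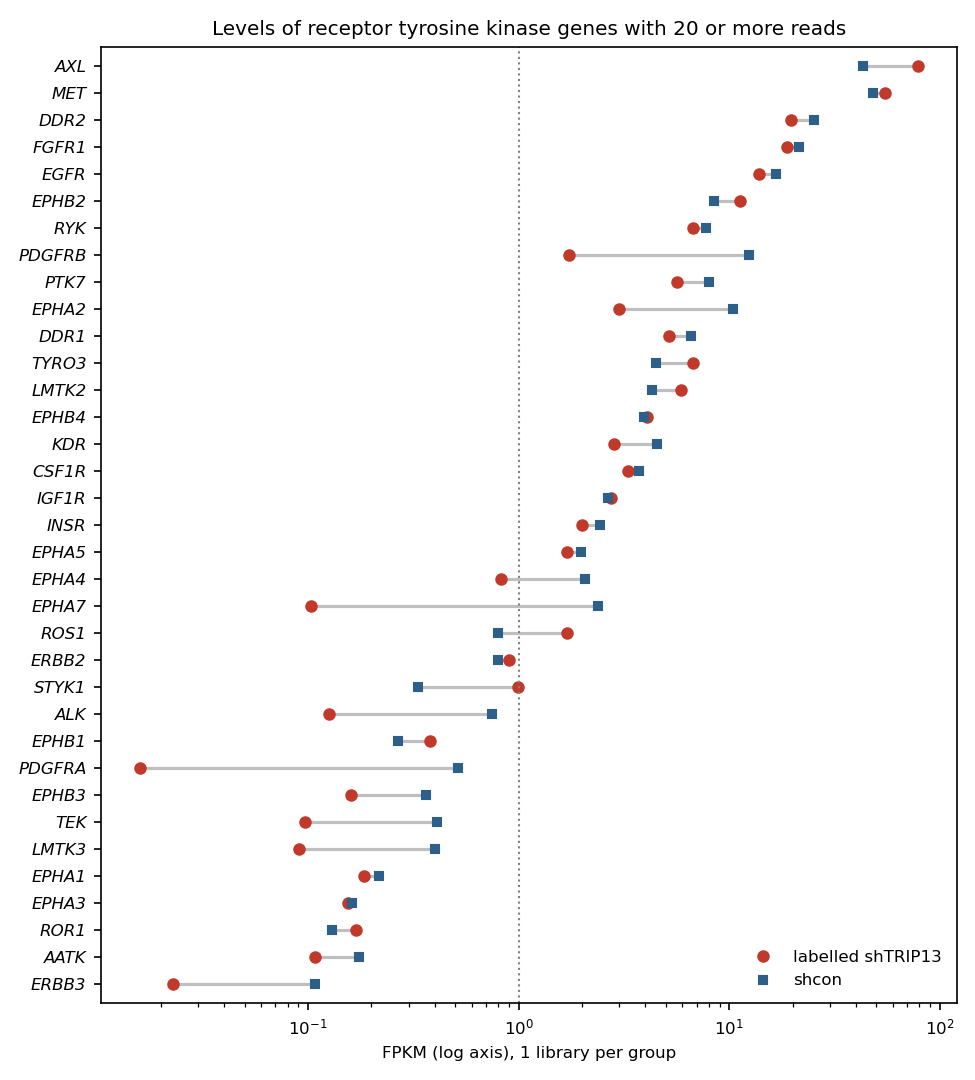
FPKM (log axis) of the 35 receptor tyrosine kinase genes with 20 or more reads, as circles for the library labelled shTRIP13 and squares for shcon, ordered by their mean; the dotted line marks 1 FPKM. AXL and MET lie highest in both libraries, and the widest gaps are those of PDGFRA, EPHA7, PDGFRB and ALK, each lower in the library labelled shTRIP13.

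Differences were uneven across the family, and the large ones ran mostly one way. By the size rule, a log2 ratio of FPKM + 1 of at least 1 in either direction, 3 of the 22 members past the filter were lower in the library labelled shTRIP13 (PDGFRB, EPHA2 and EPHA7), where 4.19% of 10671 protein-coding genes were lower. No member was higher by that rule (0 of 22), where 2.17% of those genes were. EPHA7 passed the filter only through its shcon value (2.39 FPKM, against 0.104 FPKM in the library labelled shTRIP13). The filter was the same for all genes. The median log2 ratio of the 22 was -0.18, against 0.12 over all 10671 genes. Setting the median ratio of all genes to 1 shifts log2 ratios by -0.12, so relative to the typical gene the members' median lay lower by 0.30 (-0.30). Of the 22, 14 lay below 0 and 8 above, where 39.6% of all genes lay below 0.

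The read rule also covers members too low for the FPKM filter. It asks for a 2-fold FPKM ratio whose counting interval lies beyond the ratio of library totals (1.05). Of 35 members with 20 or more reads, 10 were lower and 2 higher, compared with 10.5% and 4.68% of 12895 protein-coding genes. Low genes differ more often by this rule. Of the 22 members with a mean of 1 FPKM or more, 4 were lower and 1 higher, where 6.75% and 4.12% of such genes were. Of these, EPHA7, EPHA4 and ROS1 reached that mean only through the library where they were high. Of the 13 below it, 6 were lower and 1 higher, where 28.7% and 7.37% of such genes were. The members nearest the limits were ROS1, inside at a ratio of 2.11, AXL, outside at 1.81, EPHB3, inside at 0.438, and AATK, outside at 0.619. Without the demand for a 2-fold ratio, the interval lay wholly below the ratio of totals for 20 of the 35 members and wholly above it for 7, where 35.0% and 37.7% of genes did.

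**Figure D2:**
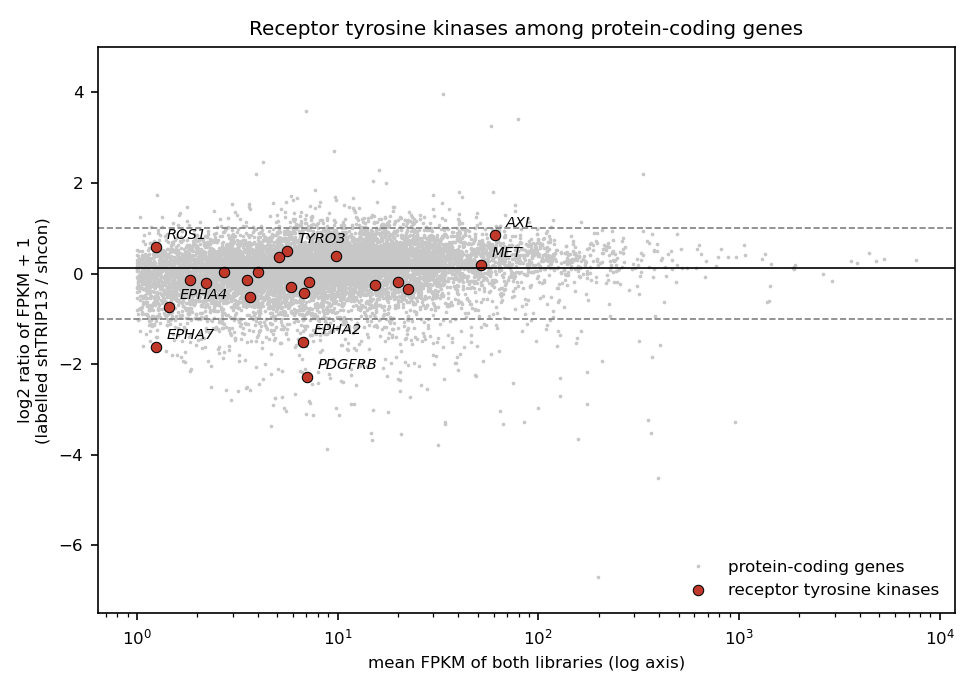
Log2 ratio of FPKM + 1 (library labelled shTRIP13 over shcon) against the mean FPKM of both libraries (log axis) for 10671 protein-coding genes in grey and 22 receptor tyrosine kinases in red. The solid line marks the median of all genes, 0.12, and the dashed lines a 2-fold difference; PDGFRB, EPHA2 and EPHA7 lie below the lower dashed line and no member lies above the upper one.

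**Figure D3:**
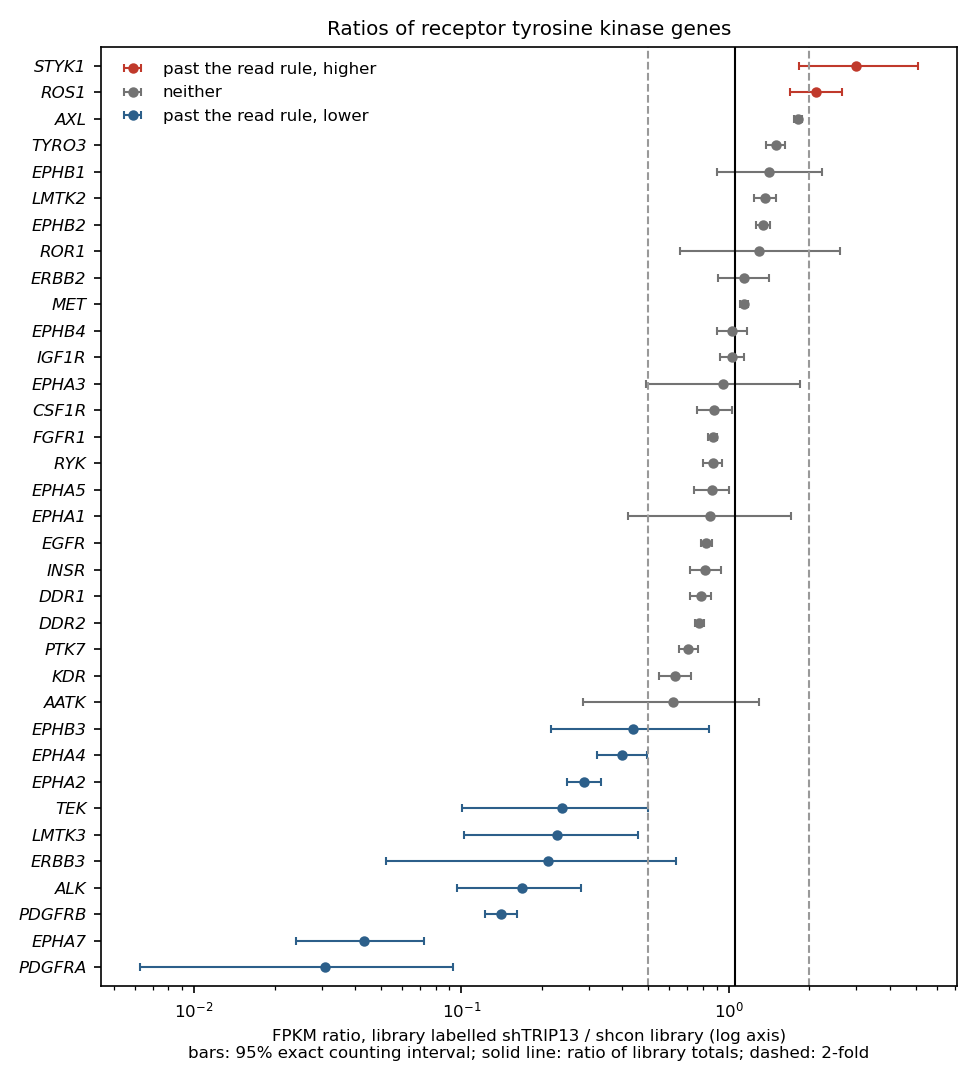
FPKM ratio (library labelled shTRIP13 over shcon, log axis) with 95% exact counting intervals for the 35 members with 20 or more reads. The solid line is the ratio of library totals, 1.05, and the dashed lines mark 2-fold; 2 members (red) pass the read rule as higher, 10 (blue) as lower and 23 (grey) as neither.

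Promoter windows are shown for the 3 members past the size rule, for AXL, which had the highest log2 ratio among members past the filter, and for CSF1R, the immediate neighbour of PDGFRB. RefSeq sequences (GRCh38.p14), from 250 bases before to 50 after the RefSeq gene start, were matched by symbol for 51 of the 57 members. That start can differ from the start of the gene measured here. It lay farthest away for EPHB1 (197459 bases), AATK (34123), EPHB6 (7695), DDR1 (4549), LMTK3 (2100) and TYRO3 (1537). For the windows shown the distance was at most 27 bases (PDGFRB). Capitals mark matches on either strand to AP-1 (TGANTCA), the GC box bound by SP1 (GGGCGG), the E-box (CACGTG), the cyclic AMP response element (TGACGTCA) or the TATA box (TATAAA). An AP-1 match cannot lie within the cyclic AMP element, while matches to other motifs may overlap at their ends and were each counted. The windows lie on the minus strand at chr5:150155796-150156095 (PDGFRB), chr5:150113316-150113615 (CSF1R), chr1:16156020-16156319 (EPHA2) and chr6:93419510-93419809 (EPHA7), and on the plus strand at chr19:41218973-41219272 (AXL).
PDGFRB: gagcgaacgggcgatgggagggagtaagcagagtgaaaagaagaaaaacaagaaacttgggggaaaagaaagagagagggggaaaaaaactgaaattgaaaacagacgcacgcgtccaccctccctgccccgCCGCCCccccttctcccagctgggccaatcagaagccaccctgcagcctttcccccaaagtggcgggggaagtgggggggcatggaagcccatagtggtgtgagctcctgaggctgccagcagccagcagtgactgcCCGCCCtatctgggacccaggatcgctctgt
CSF1R: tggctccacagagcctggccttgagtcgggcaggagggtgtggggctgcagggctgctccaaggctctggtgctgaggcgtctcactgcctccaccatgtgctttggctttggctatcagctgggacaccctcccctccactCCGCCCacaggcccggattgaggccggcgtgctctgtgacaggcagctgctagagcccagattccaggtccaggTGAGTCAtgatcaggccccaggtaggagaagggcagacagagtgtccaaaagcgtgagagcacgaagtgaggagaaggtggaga
EPHA2: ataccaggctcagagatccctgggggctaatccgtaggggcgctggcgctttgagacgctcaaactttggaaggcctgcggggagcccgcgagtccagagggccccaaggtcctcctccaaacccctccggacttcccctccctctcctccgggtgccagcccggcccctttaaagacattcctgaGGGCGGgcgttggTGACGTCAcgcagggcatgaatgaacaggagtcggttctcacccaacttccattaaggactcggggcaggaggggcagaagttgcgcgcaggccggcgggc
EPHA7: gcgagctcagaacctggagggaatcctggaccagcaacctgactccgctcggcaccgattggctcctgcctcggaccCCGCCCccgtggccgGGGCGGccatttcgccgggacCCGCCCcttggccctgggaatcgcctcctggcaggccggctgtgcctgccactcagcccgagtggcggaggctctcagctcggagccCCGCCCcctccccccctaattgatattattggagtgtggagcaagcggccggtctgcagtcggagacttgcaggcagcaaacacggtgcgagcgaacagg
AXL: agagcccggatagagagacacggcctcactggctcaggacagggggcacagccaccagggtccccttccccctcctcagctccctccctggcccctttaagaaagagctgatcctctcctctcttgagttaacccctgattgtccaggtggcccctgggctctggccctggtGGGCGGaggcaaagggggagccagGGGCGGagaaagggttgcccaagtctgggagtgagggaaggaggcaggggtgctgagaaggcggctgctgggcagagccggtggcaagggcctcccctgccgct

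In these windows PDGFRB held 2 GC boxes, CSF1R 1 GC box and 1 AP-1 match, EPHA2 1 GC box and 1 cyclic AMP element, EPHA7 4 GC boxes and AXL 2 GC boxes. A GC box was found in 38 of 51 member promoters (74.5%), in 59.5% of 14896 promoters of protein-coding genes and in 44.6% of all 27305 promoters. AP-1 matches were found in 5 members (9.80%), those of ERBB2, PDGFRA, CSF1R, TYRO3 and DDR2, in 5.78% of protein-coding promoters and in 7.76% of all promoters. The E-box was found in 3 members (5.88%), the cyclic AMP element in 2 (3.92%) and the TATA box in 3 (5.88%). In the same order, the shares were 8.94%, 2.59% and 9.37% of protein-coding promoters and 7.43%, 1.98% and 11.95% of all promoters. The median GC content of the windows was 69.0% for members, 63.0% for protein-coding genes and 58.3% for all promoters.

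The PDGF receptors stood out within their subfamily. PDGFRB, the receptor for PDGF-B and PDGF-D that marks pericytes (ENSG00000113721, hg38 chr5:150113837-150155872, minus strand), had 1.74 FPKM from 241 reads in the library labelled shTRIP13 and 12.4 FPKM from 1712 reads in shcon. It was 7.10-fold lower (6.20 to 8.16), with a log2 ratio of -2.29, and ranked 18th among the members in the library labelled shTRIP13 and 6th in shcon. PDGFRA, which binds PDGF-A and marks oligodendrocyte precursors, was low in both libraries, with 3 reads (0.0159 FPKM) in the library labelled shTRIP13 and 97 reads (0.514 FPKM) in shcon, a ratio of 0.0309 (0.00627 to 0.0931). Of its exon length, 15.8% is shared with another annotated gene. Both receptors were lower in the same library, PDGFRA from a level that was already under 1 FPKM in shcon.

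Of their relatives, CSF1R alone had enough reads to be judged by either rule, and it passed neither. CSF1R, the receptor of microglia and macrophages for CSF1 and IL34, starts 464 bases from the end of PDGFRB on the same strand and had 3.31 FPKM (330 reads) against 3.75 FPKM (374 reads), a ratio of 0.882 (0.759 to 1.03). KIT, the stem cell factor receptor, had 0 against 1 read and FLT3 had 0 in both. On chromosome 4, PDGFRA, KIT and KDR lie in a row with gaps of 359670 and 337543 bases, a stretch known for joint amplification in gliomas. KDR, the main signalling receptor for VEGF, had 2.85 FPKM (362 reads) in the library labelled shTRIP13 and 4.52 FPKM (575 reads) in shcon, 1.59-fold lower (1.39 to 1.82). The other VEGF receptors were almost silent, FLT1 with 0 against 1 read and FLT4 with 0 in both.

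Several of these receptors are also known as markers of other cell types, although the labels name U87MG cells only. In a bulk library fewer cells expressing a gene and less RNA per cell cannot be told apart. Of 14 pericyte and fibroblast marker genes, listed under 15 identifiers and PDGFRB and PDGFRA among them, the summed level was 66.3 FPKM in the library labelled shTRIP13 and 93.2 FPKM in shcon, and 6 passed the read rule as lower. LUM (121 against 440 reads), DCN (33 against 386) and FAP (1377 against 2797) were among them besides both receptors and COL3A1 (6 against 17). By that rule 10.5% of all genes tested, and 28.7% of those under 1 FPKM, were lower. CSPG4 (18.5 against 13.0 FPKM) and KCNJ8 (24 against 13 reads) lay the other way, and both RGS5 identifiers (50 against 57 and 62 against 73 reads) passed neither direction. COL1A1 (27.4 against 29.4 FPKM) and ACTA2 (2.53 against 3.28) differed less, and the pericyte marker DES had 0 against 1 read. Endothelial markers summed to 3.21 against 6.0 FPKM, most of it KDR, with CDH5 at 0 against 6 reads, PECAM1 at 1 against 45, VWF at 6 against 75 and ROBO4 at 6 against 33, while ERG had 14 against 11, EGFL7 and ESAM 2 against 0 each and CLDN5 1 against 1. Of 12 microglia and macrophage markers, AIF1, CX3CR1, P2RY12, TYROBP, C1QA and C1QB had no read in either library, PTPRC had 0 against 11, and the sum of 4.50 against 9.00 FPKM was mostly CSF1R and TMEM119 (0.696 against 4.40 FPKM). Among oligodendrocyte markers, OLIG2 had 22 against 177 reads, SOX10 had 4 against 1 and MOG had 0 in both, with sums of 36.1 against 26.6 FPKM carried by CSPG4 and CNP. Neuronal markers summed to 10.9 against 11.8 FPKM, with SYT1 (108 against 243 reads) and RBFOX3 (5 against 17) lower by the read rule and GAD1 (262 against 164) and TUBB3 (99 against 62) the other way. Astrocyte and glioma sphere markers summed to 630 against 726 FPKM, most of it VIM and CD44, and 5 of the 9 with 20 or more reads were lower by the read rule. The labels name no cells besides U87MG, and whether any others contributed to the receptor values was not tested.

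Eph receptors are the largest subfamily. They bind ephrins on the surface of neighbouring cells, EPHA members mostly the GPI-anchored ephrin-A proteins and EPHB members the transmembrane ephrin-B proteins. The 9 EPHA genes summed to 5.97 FPKM in the library labelled shTRIP13 and 17.3 FPKM in shcon, and the 5 EPHB genes to 15.9 and 13.1 FPKM. Of the 10 Eph genes with 20 or more reads, 3 EPHA genes and 1 EPHB gene were lower by the read rule and 0 were higher, where 10.5% and 4.68% of all genes were.

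EPHA2, an ephrin-A1 receptor abundant in many glioblastomas (ENSG00000142627, chr1:16124337-16156087, minus strand), had 3.0 FPKM from 242 reads in the library labelled shTRIP13 and 10.4 FPKM from 842 reads in shcon, 3.48-fold lower (3.01 to 4.03; log2 ratio -1.52). EPHA7, a receptor of ephrin-A5 with roles in cortical development (ENSG00000135333, chr6:93240020-93419547, minus strand), had 0.104 FPKM from 15 reads in the library labelled shTRIP13 and 2.39 FPKM from 346 reads in shcon. It was 23.1-fold lower (13.8 to 41.7), the widest gap of any member past the FPKM filter. EPHA4, which binds ephrins of both classes, had 0.826 FPKM (121 reads) against 2.07 FPKM (303 reads), 2.50-fold lower (2.02 to 3.12). Its log2 ratio of -0.75 missed the size rule.

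Among the remaining Eph receptors EPHB3 alone passed the read rule. EPHB2, the most abundant of them, had 11.3 FPKM (2741 reads) in the library labelled shTRIP13 and 8.43 FPKM (2045 reads) in shcon, a ratio of 1.34 (1.27 to 1.42). EPHB4, the ephrin-B2 receptor of veins, had 4.07 against 3.96 FPKM, a ratio of 1.03 (0.907 to 1.17), and its log2 ratio of 0.03 falls below 0 under each of the scalings tried. EPHA5, a neuronal member, had 1.70 against 1.97 FPKM, a ratio of 0.862 (0.740 to 1.0). EPHB3 had 14 against 32 reads, 2.29-fold lower (1.19 to 4.64), while EPHB1 had 51 against 36, EPHA3 20 against 21 and EPHA1 17 against 20, with intervals that include the ratio of totals. EPHA6, EPHA8, EPHB6 and EPHA10 had at most 3 reads in either library.

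The TAM receptors, which recognise dying cells through the bridging ligands GAS6 and PROS1, had the highest summed level of any subfamily in the library labelled shTRIP13 (85.3 FPKM) and in shcon (47.9 FPKM) lay just below MET. AXL (ENSG00000167601, chr19:41219203-41261766, plus strand) had 78.5 FPKM from 7841 reads in the library labelled shTRIP13 and 43.3 FPKM from 4327 reads in shcon. The ratio was 1.81 (1.75 to 1.88) and the log2 ratio 0.84, the highest among members past the filter and short of the size rule. AXL made up 30.8% of the summed level of all members in the library labelled shTRIP13 and 17.5% in shcon. TYRO3 was also higher, at 6.74 FPKM (1430 reads) against 4.51 FPKM (956 reads), a ratio of 1.5 (1.38 to 1.63), whereas MERTK, the member typical of macrophages, had 1 against 5 reads. Their ligands lay the other way, with GAS6 at 3.98 against 4.85 FPKM and PROS1 at 16.7 against 23.9 FPKM.

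**Figure D4:**
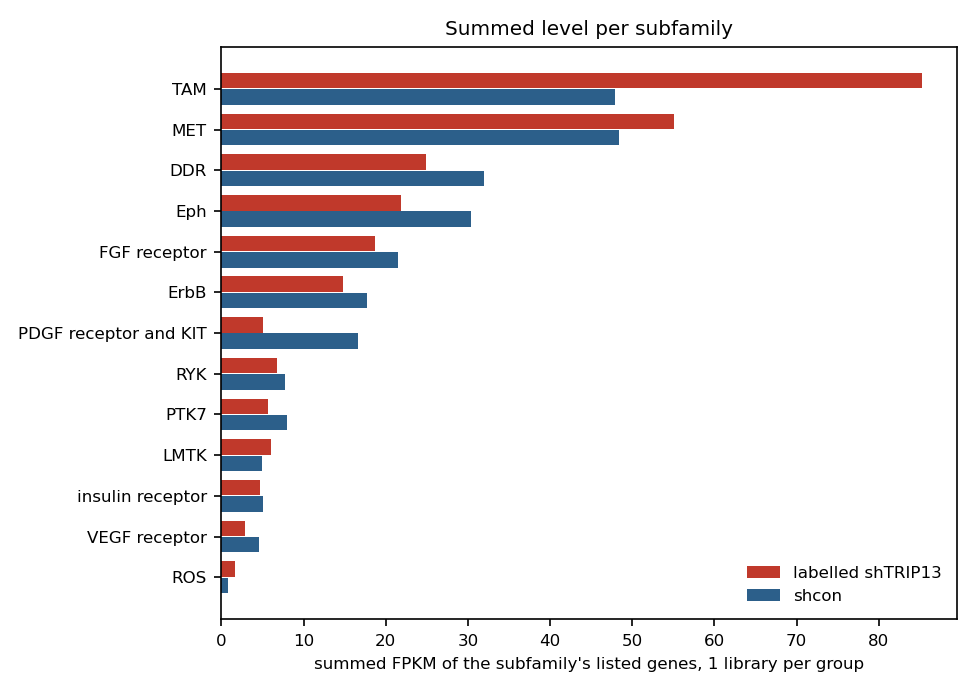
Summed FPKM of the listed genes of each subfamily with at least 1 member past the filter, with the library labelled shTRIP13 above shcon in each pair. The TAM sum is 85.3 against 47.9 FPKM and the sum of PDGF receptors and KIT relatives 5.06 against 16.6 FPKM; bars carry no error because each group held 1 library.

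The other abundant receptors differed by less than 1.5-fold. MET, the receptor for HGF and a driver of invasion, had 55.1 FPKM (7513 reads) in the library labelled shTRIP13 and 48.4 FPKM (6606 reads) in shcon, a ratio of 1.14 (1.10 to 1.18). EGFR had 13.8 FPKM (3353 reads) against 16.8 FPKM (4070 reads), a ratio of 0.824 (0.787 to 0.863). FGFR1, the 1 FGF receptor with an appreciable level, had 18.7 FPKM (5021 reads) against 21.5 FPKM (5759 reads), a ratio of 0.872 (0.839 to 0.906). The collagen receptors DDR2, at 19.7 against 25.4 FPKM, and DDR1, at 5.17 against 6.60 FPKM, had ratios of 0.776 (0.745 to 0.809) and 0.784 (0.718 to 0.856). Their many reads make the intervals narrow, which says nothing of how far such ratios vary between cultures.

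Of the catalytically weak receptors of WNT signalling, PTK7 and RYK were expressed at middle levels, while ROR1 was low and ROR2 close to absent. PTK7, a regulator of planar cell polarity, had 5.65 FPKM (988 reads) against 8.01 FPKM (1400 reads), a ratio of 0.706 (0.650 to 0.766). RYK, a WNT co-receptor, had 6.73 against 7.75 FPKM, a ratio of 0.869 (0.799 to 0.945). ROR1 had 22 against 17 reads and ROR2 0 against 1, although their ligand WNT5A was abundant at 37.4 against 47.3 FPKM. Of the insulin receptor group, INSR had 1.99 against 2.43 FPKM, a ratio of 0.817 (0.715 to 0.934). IGF1R had 2.75 against 2.67 FPKM, with a ratio of 1.03 (0.926 to 1.14) and a log2 ratio of 0.03 that turns below 0 under each scaling tried, so no direction is read for it. INSRR, a sensor of alkaline pH in kidney, had 1 against 0 reads.

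Members past the read rule as higher were ROS1 and STYK1, and ROS1 no longer passed after rescaling to TPM or with the median ratio of all genes set to 1. ROS1, known for oncogenic fusions, had 1.69 FPKM from 258 reads in the library labelled shTRIP13 and 0.801 FPKM from 122 reads in shcon, a ratio of 2.11 (1.70 to 2.64). STYK1, a kinase-like protein without a known ligand, had 0.995 FPKM from 66 reads against 0.332 FPKM from 22 reads, a ratio of 3.0 (1.83 to 5.11). LMTK2, an endosomal kinase, had 5.88 against 4.31 FPKM, a ratio of 1.36 (1.24 to 1.5). Its relative LMTK3 went the other way with 10 against 44 reads, 4.40-fold lower (2.18 to 9.81), and AATK had 13 against 21 reads, a ratio of 0.619 (0.285 to 1.30).

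Further low members past the read rule were lower. ALK, a receptor of the developing nervous system and a neuroblastoma oncogene, had 18 reads (0.126 FPKM) in the library labelled shTRIP13 and 107 reads (0.75 FPKM) in shcon, 5.94-fold lower (3.59 to 10.4). TEK, the angiopoietin receptor of endothelium, had 9 against 38 reads, 4.22-fold lower (2.01 to 9.93), beside the low endothelial markers given above. ERBB3, the neuregulin receptor that signals through ERBB2, had 4 against 19 reads, 4.75-fold lower (1.58 to 19.2), whereas ERBB2 had 181 against 159 reads, a ratio of 1.14 (0.915 to 1.42). At these levels the intervals are wide, and 28.7% of comparably low genes were lower by the same rule.

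The members with 1 to 19 reads summed to 6 reads in the library labelled shTRIP13 and 41 in shcon, and 14 of these 15 had more reads in shcon, as did 62.9% of 3357 protein-coding genes with 1 to 19 reads. At such counts no direction is read for any single gene. They were ERBB4, INSRR, KIT, FLT1, FGFR4, NTRK2, NTRK3, ROR2, MUSK, MERTK, TIE1, EPHA6, EPHA8, EPHB6 and LTK, none with more than 6 reads in a library. FLT3, FLT4, FGFR2, FGFR3, MST1R, EPHA10 and RET had no read in either library. A count of 0 allows up to 3 reads per library, which for these 7 genes is 0.0175 to 0.0372 FPKM depending on length. LTK, which lies 43787 bases from TYRO3 on chromosome 15, had 0 against 4 reads, and the neighbours EPHA8 (0 against 1 read) and EPHB2, 107244 bases apart on chromosome 1, likewise differed in level.

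Of 75 ligand genes (76 identifiers, IGF2 having 2), 35 passed the FPKM filter, 4 were lower by the size rule and 0 higher, with a median log2 ratio of -0.23 against 0.12 over all genes, of which 4.19% were lower and 2.17% higher. EREG, an EGFR ligand, had 20.4 FPKM in the library labelled shTRIP13 and 65.3 FPKM in shcon, 3.20-fold lower (3.05 to 3.36). HGF, the MET ligand, had 3.53 against 9.98 FPKM, 2.83-fold lower (2.59 to 3.09). MDK, a growth factor reported to act on ALK, had 4.72 against 12.1 FPKM, 2.57-fold lower (2.18 to 3.04). FGF14, an intracellular FGF homolog that does not act through FGF receptors, had 0.589 against 4.79 FPKM, and 33.2% of its exon length is shared with other genes. It passed the filter only through shcon.

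By the read rule, 7 of 45 ligand identifiers were lower and 4 higher, where 10.5% and 4.68% of all genes were, and 28.7% and 7.37% of those under 1 FPKM. Among the lower ones FGF7, a ligand of FGFR2, had 2 against 242 reads, a ratio of 0.00826 (0.000995 to 0.0302). FGF18 (20 against 75 reads) and EPGN (3 against 19 reads) were lower as well. The higher ones included BTC (49 against 13 reads), ANGPT1 (157 against 77 reads) and NTF4 (24 against 2 reads), the last with 50.4% of its exon length shared with other genes. PDGFC (11.5 against 7.85 FPKM) and KITLG (6.58 against 4.50 FPKM) had log2 ratios of 0.50 and 0.46. PDGFA (2.47 against 4.04 FPKM), HBEGF (6.15 against 10.8 FPKM) and NRG1 (2.77 against 4.76 FPKM) lay the other way. Their log2 ratios were -0.54, -0.72 and -0.61. Of the 35 ligand genes past the FPKM filter, 25 lay below 0 and 10 above. CSF1 had 44.0 against 39.2 FPKM and VEGFA 64.8 against 84.5 FPKM, while PDGFB had 0 against 1 read and PDGFD 0 against 2. KITLG, GDNF (3.04 against 4.81 FPKM) and BDNF (3.92 against 3.99 FPKM) were thus present where their receptors KIT, RET and NTRK2 had at most 3 reads in a library.

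**Figure D5:**
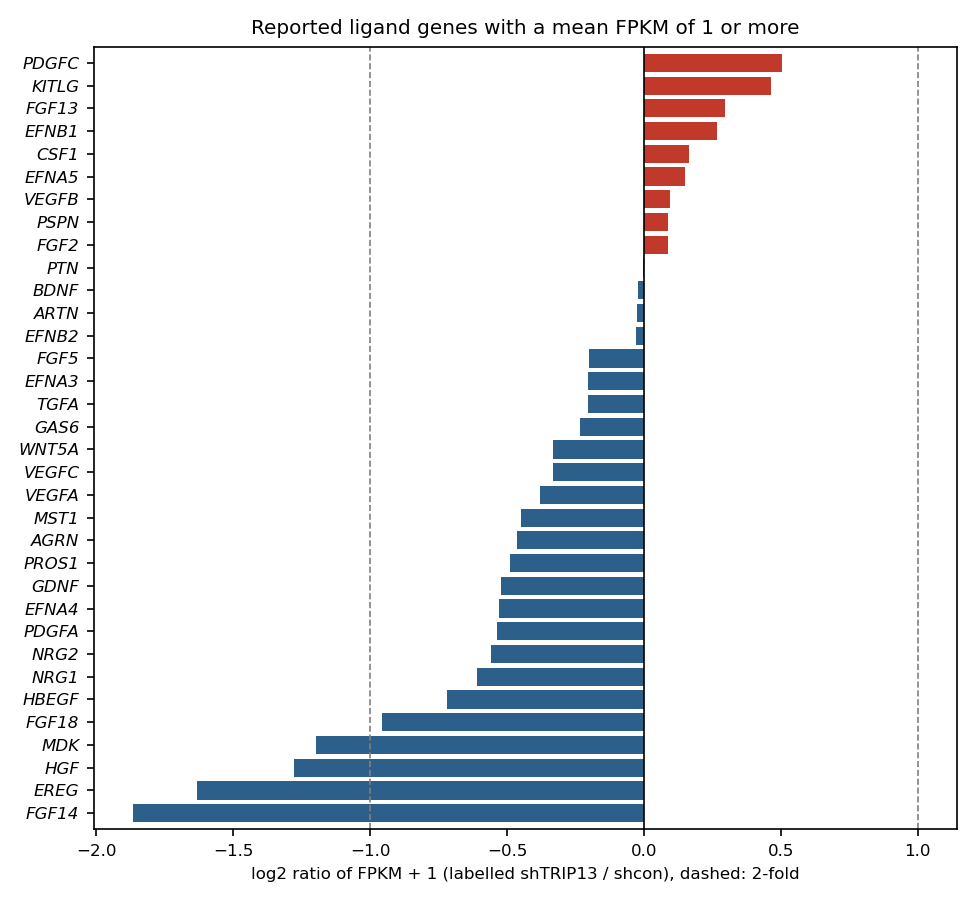
Log2 ratio of FPKM + 1 (library labelled shTRIP13 over shcon) for the reported ligand genes with a mean of 1 FPKM or more; dashed lines mark 2-fold. Bars of FGF14, EREG, HGF and MDK pass the lower line, and no bar shown passes the upper one.

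Adaptors and the RAS-ERK core carry the signal onward from the receptors. Of 34 such genes past the filter, 17 lay above 0 and 17 below, 1 was lower by the size rule and 0 higher, with a median log2 ratio of 0.00 that lies below 0 under each scaling tried. VAV3, a guanine nucleotide exchange factor, had 2.43 against 7.17 FPKM, followed by IRS2 (4.74 against 8.88) and GAB2 (1.69 against 3.08). At the upper end stood HRAS (32.8 against 20.5 FPKM), ARAF (23.7 against 17.1) and PLCG1 (18.3 against 13.3). Of 25 genes that attenuate receptors, 1 was lower by the size rule and 0 higher, with a median of -0.12, and the same shares of all genes apply (4.19% lower, 2.17% higher). SH2B3 had 60.3 against 123 FPKM, the ubiquitin ligase CBLB 2.14 against 4.35 and LRIG1, which lowers ErbB receptor levels, 4.58 against 8.23, while the endosomal sorting proteins STAM (19.5 against 14.8) and HGS (32.6 against 25.6) and the phosphatase PTPRJ (5.91 against 4.62) stood at the upper end.

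Of 19 genes induced by ERK signalling that passed the filter, 5 were lower and 0 higher by the size rule (4.19% and 2.17% of all genes), with a median of -0.73 against 0.12 over all genes. EPHA2 and EPHA4 belong to this list as well as to the receptors. DUSP6 had 5.28 against 40.7 FPKM and FOS 1.77 against 11.5, whereas CCND1 (275 against 142), FOSL1 (479 against 259) and SPRED1 (9.61 against 9.48) were at the upper end. Of DUSP6, 40.5% of the exon length is shared with another gene. Among 9 co-receptors past the filter 0 passed the size rule in either direction, with a median of -0.09. NRP2, a VEGF and semaphorin co-receptor, had 36.1 against 64.1 FPKM, SDC2 5.18 against 9.45 and SDC4 64.0 against 73.8, and at the upper end GPC1 had 15.6 against 8.43, FGFRL1 6.36 against 6.19 and LRP4 4.85 against 4.77. For the last 2, and for SPRED1, the log2 ratios of 0.03, 0.02 and 0.02 are not read as a direction.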

How the data were processed

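RNA sequencing libraries of U87MG spheres, 1 per group, were analysed from a table of FPKM values deposited by the authors for 58735 genes. FPKM here means fragments per kilobase of merged exons, scaled by a total common to both libraries. Per the submitters' processing notes, the tools were edgeR, featureCounts 1.5.0-p3 and HISAT2 2.0.5 on build hg38, with roles and settings not given in the sources used here. Identifiers and positions equalled those of GENCODE release 29 for all 58735 genes, so overlapping genes could share reads, and strand use is not known.

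FPKM multiplied by gene length gave whole multiples of the worth of 1 read, within 0.05 of a read for 100.0% of genes. Summed over genes, this came to 19903836 reads (labelled shTRIP13) and 18871063 reads (shcon), a ratio of 1.05. Since both columns share a common total, the FPKM ratio equals the read ratio and is not corrected for depth. Intervals are 95% Clopper-Pearson intervals of the read split and cover counting error only, as does the floor of 3 reads, because PCR copies cannot be told from separate molecules.

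The log2 ratio is log2(FPKM + 1) in the library labelled shTRIP13 minus that in shcon, and it understates differences of low genes. The size rule took a log2 ratio of at least 1, or at most -1, among protein-coding genes averaging at least 1 FPKM. The read rule took an FPKM ratio of at least 2, or at most 0.5, with an interval beyond the ratio of totals, among genes with 20 or more reads in both libraries together. With 1 library per group there is no test. Members with 20 or more reads were named, and the 3 highest and 3 lowest of each other list. Of the ligands of receptors described, only some were named, and the ephrins were not. The ligands past the read rule, PDGFA, HBEGF, NRG1 and the single marker genes were named after their values were seen. A ligand gene that the rule names is not reported here. Members and lists were chosen with earlier results of these data known. The recovery and intervals were tested on simulated data. Alternatives were pseudocounts of 0.1 and 5, other filters, own totals, TPM, a median ratio of 1 and read minimums of 10 and 100. Intervals came from scipy 1.17.1 and figures from matplotlib 3.10.9, with pandas 2.3.3 and numpy 2.4.6 under Python 3.11.15.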

Additional observations from a re-analysis of the deposited data

How the results depend on the processing

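No paired analysis was possible because only 1 library represents each condition. By the size rule 0 members were higher under every alternative run, and the count of lower members stayed at 3 with own totals, with the median ratio set to 1 and with no filter. It was 4 with a pseudocount of 0.1, 2 at a mean of 5 FPKM or more and 1 with a pseudocount of 5 (PDGFRB). After rescaling to TPM it was 5, which adds EPHA4 and ALK. That run kept the pseudocount of 1, and 26 members passed its filter instead of 22. ALK, with a mean of 0.438 FPKM, lay under the filter in FPKM. How far each change counts was not tested. The median log2 ratio of members was -0.10 with a pseudocount of 5, -0.022 with no filter, -0.25 with own totals, and -0.30 under both TPM and a median ratio of 1. The read rule gave the same 10 lower members under the 3 scalings. With 100 or more reads it gave 6, since 25 members remained. ROS1 fell out of the higher ones under TPM and a median ratio of 1 (1 left, STYK1), and STYK1 at the 100-read minimum (1 left, ROS1). Among the 35 named members, 74 of 175 alternative log2 ratios lay outside a counting interval of the log2 ratio. That interval differs from the intervals of the FPKM ratio given above, and a changed pseudocount alters the log2 ratio itself. In 2 members, EPHB4 and IGF1R, the log2 ratio changed sign. Depth limits the 22 members with fewer than 20 reads, for which no direction is read.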

Other observations

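Noncoding loci named after members lie outside the comparisons above. Of 6 such loci, EPHA5-AS1 had 38 reads in the library labelled shTRIP13 and 33 in shcon (ratio 1.15, counting interval 0.703 to 1.89), ROR1-AS1 had 35 and 48 (0.729, 0.458 to 1.15) and EGFR-AS1 had 9 and 12 (0.75, 0.279 to 1.94). EPHA1-AS1 had 0 and 1 read, and DDR1-DT and NTRK3-AS1 had none. These intervals include the ratio of library totals. Per length, ROR1-AS1 lay above ROR1 in both libraries (0.51 against 0.17 FPKM in the library labelled shTRIP13, and 0.699 against 0.13 FPKM in shcon). Whether reads were counted by strand is not known, so reads from exon stretches shared by a gene and its antisense partner cannot be told apart. EGFR shares 1.49% of its exon length with EGFR-AS1 and EPHA5 5.44% with EPHA5-AS1, while ROR1 shares none with another annotated gene.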
